A study of Homo sapiens with 6 samples.

Results

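The genes described here are 10 regulators of alternative splicing, namely the muscleblind-like genes MBNL1, MBNL2 and MBNL3, the CELF genes CELF1 and CELF2, RBFOX2, the epithelial splicing regulators ESRP1 and ESRP2, QKI and RBM47. They were taken by symbol from a table of read counts of 36517 genes, and 10 of the 10 were found in it. MDA-MB-453, a human breast cancer cell line, was transduced with a lentiviral hairpin. It was either one that targets tRF-1-Ser (shtRF, n = 3) or a negative control (shNC, here called control, n = 3). The study describes the sequenced cells as stable knockdown cells and their controls. The titles of the 6 libraries give day 3, without saying from when it was counted. tRF-1-Ser derives from the trailer that is removed when a precursor of a serine tRNA matures, and the study examined its link with the MBNL1 protein. These mRNA libraries do not measure this small RNA, so the groups rest on the labels here, and the study's own qPCR check of its knockdown models was not analysed here. All libraries come from a single cell line and 1 hairpin per group, and the sources used here do not say whether the replicates were separate transductions, so the p-values measure the spread between these samples, which may be technical.

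These proteins bind short motifs in pre-mRNA and raise or lower the inclusion of nearby exons, often depending on whether they bind before or after the exon. MBNL proteins bind YGCY motifs and drive many adult splicing patterns in muscle and brain, and they are sequestered by expanded CUG repeats in myotonic dystrophy. CELF proteins bind GU-rich RNA and act against MBNL on a set of shared exons. RBFOX2 binds UGCAUG, ESRP1 and ESRP2 drive the epithelial forms of many transcripts, QKI binds ACUAA-like elements and is linked to the mesenchymal forms and to circular RNAs, and RBM47 is an epithelial RNA-binding protein also known as a partner of APOBEC1 in RNA editing. Total read counts per gene, as analysed here, give how much of each regulator's mRNA was present. They do not show which exons were included, nor where the protein was in the cell.

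MBNL1 is the regulator named by the study's question, and the following sequences show which of its annotated transcripts the study's PCR primers match. MBNL1 lay at chr3:152243828-152465780 (GRCh38, plus strand), and 24 transcripts of it are annotated in GENCODE release 29. An alternative exon of 54 bases, at chr3:152446704-152446757, is held by 5 of the 24. Its length is a multiple of 3, so its inclusion keeps the reading frame. The exon is read from the GENCODE transcripts and the primers from the study's primer list, all printed 5′ to 3′, and capitals in the exon mark the stretch to which the reverse primer of the study's MBNL1 qPCR pair is complementary.
MBNL1 alternative exon: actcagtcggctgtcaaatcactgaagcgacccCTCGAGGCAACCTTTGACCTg
qPCR forward: gttgcaccaagcttagccac
qPCR reverse: aggtcaaaggttgcctcgag
splicing PCR forward: gcccaataccaggtcaacca
splicing PCR reverse: gtgttaaagactgcggtggc

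The qPCR reverse primer lay wholly within the 54-base exon, at its bases 34 to 53. The forward primer matched 16 of the 24 annotated transcripts and the reverse primer 5, so the qPCR pair spans 503 bases in the 5 transcripts with the exon and matches no pair of sites in the other annotated transcripts. The pair used for splicing PCR flanks the exon and spans 197 bases in the 5 transcripts that hold it and 143 bases in 8 that do not. The counts analysed here add up reads over the 19 exon blocks assigned to MBNL1 in the annotation used for counting. They therefore measure another quantity than the qPCR pair does. Whether these blocks hold every exon of the 24 transcripts, the 54-base exon included, was not checked.

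**Figure D1:**
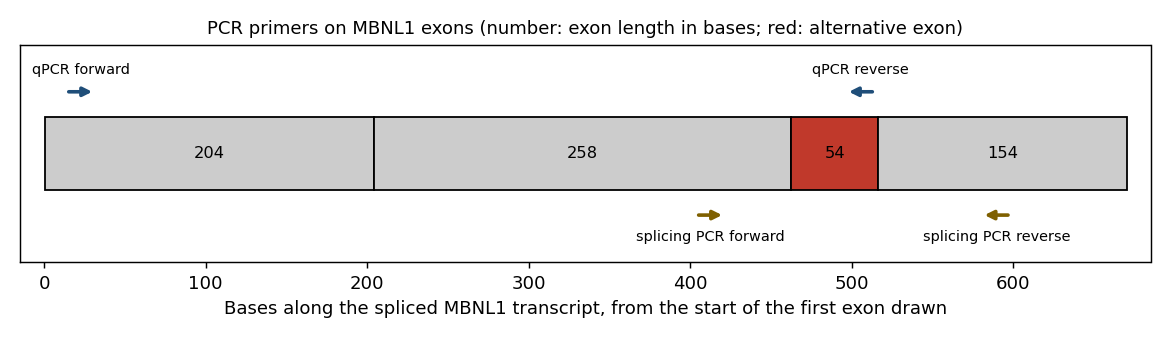
Map of the 2 primer pairs along spliced MBNL1 exons, with the x axis in bases from the start of the first exon drawn and the number in each box giving the exon length. The qPCR reverse primer sits inside the 54-base alternative exon (red), whereas the splicing PCR primers sit on either side of it.

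Depth was high for most of these genes. Library totals ran from 63541413 to 78917459 counts, and within groups no pair of libraries agreed within sampling noise (chi-square per degree of freedom 6.19 to 19.1). Markers of luminal breast epithelium were abundant, as the label of the cells implies: 10 of 10 were tested and their summed level was 10736 to 11590 CPM (counts per 1000000 of the TMM-scaled total) in the control libraries and 13282 to 14646 CPM in the shtRF libraries, with 3 of the 10 higher, 3 lower and 4 not called. The 10 mesenchymal markers summed to 36.6 to 41.6 CPM in control and 27.0 to 28.1 CPM in shtRF, and of the 4 that could be tested 1 was higher and 1 lower. Muscle markers summed to 5.26 to 6.36 CPM over the 6 libraries, endothelial markers to 0.172 to 0.393 CPM and immune markers to 0.0484 to 0.252 CPM. The luminal sum thus moved up and the mesenchymal sum down together with the regulators described below, and their part in these results was not tested. In bulk RNA, fewer cells that express a gene and less of its RNA per cell cannot be told apart.

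Among the 10 regulators, RBFOX2, MBNL1 and MBNL2 rose in shtRF, QKI, MBNL3, RBM47 and CELF1 fell, ESRP1 and ESRP2 were not called, and CELF2 had too few counts to be tested. QKI changed most, falling by 40.8%. Each other called gene moved by under 1.5-fold. With edgeR's quasi-likelihood test and an adjusted p under 0.05, 3 of the 9 tested members were higher, against 20.6% of all 19628 tested genes, and 4 were lower, against 18.9%. The number lower was 2 without control replicate 2 or without shtRF replicate 2, and the number higher was 1 under both limma alternatives, which used log2 RPKM. Only QKI was lower by over 1.5-fold (background 6.83%), and 0 members were higher by over 1.5-fold (background 6.22%). The 3 libraries of one group lay wholly above or below the 3 of the other for 7 of the 9, against 48.7% of all tested genes. The share of genes called in either direction was 39.5% over all tested genes and 51.9% over the 9692 genes whose mean level fell within the range of the tested members, 4.72 to 138.5 CPM. The median absolute log2 fold change was 0.25 over the 9 members and 0.26 over all tested genes, so the members as a group moved about as far as the typical gene.

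The levels of different genes are compared per kilobase of exon, as RPKM. In control cells the order ran ESRP1 (mean 27.9 RPKM), ESRP2 (16.7), RBFOX2 (9.46), RBM47 (8.47), CELF1 (6.55), MBNL1 (3.24), QKI (1.83), MBNL2 (0.834), MBNL3 (0.788) and CELF2 (0.0033). Both epithelial regulators therefore stood at the top, with ESRP1 at the 91.7th and ESRP2 at the 86.6th percentile of the tested genes, and MBNL1 stood near the middle at the 56.8th. Neighbours in this order did not overlap over the 3 control libraries, except MBNL2 and MBNL3. In shtRF the order was the same but for 1 exchange, in which MBNL2 (1.09 RPKM) and QKI (1.08 RPKM) came level, with overlapping libraries, whereas in control QKI had lain above MBNL2 in every library.

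**Figure D2:**
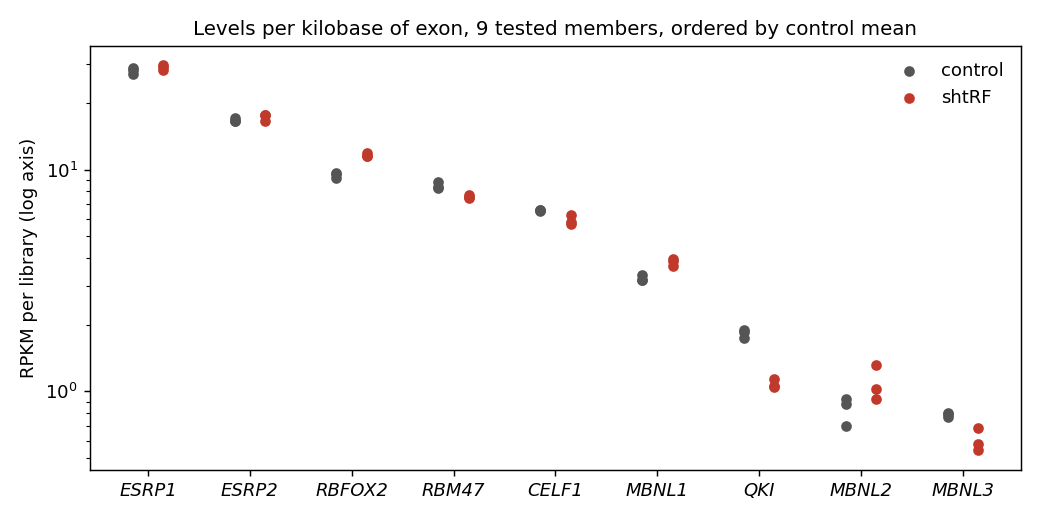
Level of the 9 tested regulators in each library (points; grey control, red shtRF), with RPKM on a log axis and genes ordered by the control mean. ESRP1 and ESRP2 are the most abundant per length, and the QKI points fall to the height of the MBNL2 points in shtRF.

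MBNL1, the most abundant of the 3 muscleblind-like genes in these cells, rose slightly. Its levels were 31.8, 33.4 and 31.8 CPM in control and 36.8, 39.5 and 38.7 CPM in shtRF, and each shtRF library lay above each control library. The control mean of 32.3 ± 0.90 CPM compared with 38.3 ± 1.38 CPM in shtRF, where errors of levels are SDs over 3 libraries. On the log2 scale the difference was 0.25, with an SE of 0.06 (adjusted p = 0.0021, edgeR), and errors of log2 fold changes are SEs throughout. Of all tested genes, 48.6% moved less. The call was lost on both log2 RPKM scales tested with limma (adjusted p = 0.0582 and 0.053). Exons of 2 genes on the opposite strand share 15.6% of the exonic bases of MBNL1, mainly the antisense gene MBNL1-AS1, whose own count (257, 262 and 313 in control; 341, 336 and 335 in shtRF) was also higher, with a log2 fold change of 0.42 ± 0.12 (adjusted p = 0.0097, edgeR). Whether the counting used strand is not given in the sources used here. After the whole counts of both partners had been subtracted, MBNL1 remained higher, with a log2 fold change of 0.22 (adjusted p = 0.0079, edgeR). The study itself reported no effect of tRF-1-Ser knockdown or overexpression on MBNL1 mRNA, measured by qPCR, or on its protein. It also reported less of the MBNL1 form that lacks an alternative exon after tRF-1-Ser overexpression, an exon it cites as important for nuclear location. The counts rose slightly where no effect on mRNA was reported. Whether the qPCR could resolve a change of this size was not tested. Gene counts and the qPCR pair measure different quantities, and protein was not measured here.

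MBNL2, the paralogue best known for its role in the brain, lay at chr13:97221434-97394120 and shared no exonic base with another gene. Its levels were 3.44, 4.54 and 4.30 CPM in control and 6.45, 5.02 and 4.55 CPM in shtRF, so that 1 shtRF library was well above the rest while the other 2 lay just above the highest control. The log2 fold change was 0.38 ± 0.14 (adjusted p = 0.0374, edgeR). This call rested on single libraries: the adjusted p was 0.288 without shtRF replicate 1, where the log2 fold change was 0.22, and 0.18 without control replicate 1. It was 0.0611 under upper quartile scaling.

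MBNL3, the X-linked paralogue (chrX:132369317-132489968, minus strand) found mainly in developing and regenerating tissue, moved the other way. Its levels were 9.39, 9.74 and 9.70 CPM in control and 8.31, 7.05 and 6.61 CPM in shtRF, with no overlap between the groups. It fell by 23.7%, a log2 fold change of -0.39 ± 0.10 (adjusted p = 0.0033, edgeR). The call was lost under limma on log2(RPKM + 0.1) (adjusted p = 0.0553).

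Since the 3 MBNL proteins bind much the same motif, their summed level and its makeup are given as a description. The summed MBNL level per length went from 4.86 ± 0.20 RPKM to 5.53 ± 0.17 RPKM, a ratio of 1.14, and every shtRF library was above every control library. MBNL3 made up 16.5%, 15.8% and 16.4% of this sum in control and 12.0%, 10.4% and 10.2% in shtRF. MBNL1 made up 66.7% ± 1.5 of it in control and 69.5% ± 4.1 in shtRF, and MBNL2 17.1% ± 1.8 and 19.6% ± 3.1, and both of these shares overlapped between the groups. The family thus gained a little in total and lost MBNL3 in proportion, and the ratio of MBNL1 to MBNL3 went from 4.11 ± 0.09 to 6.47 ± 0.93.

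**Figure D3:**
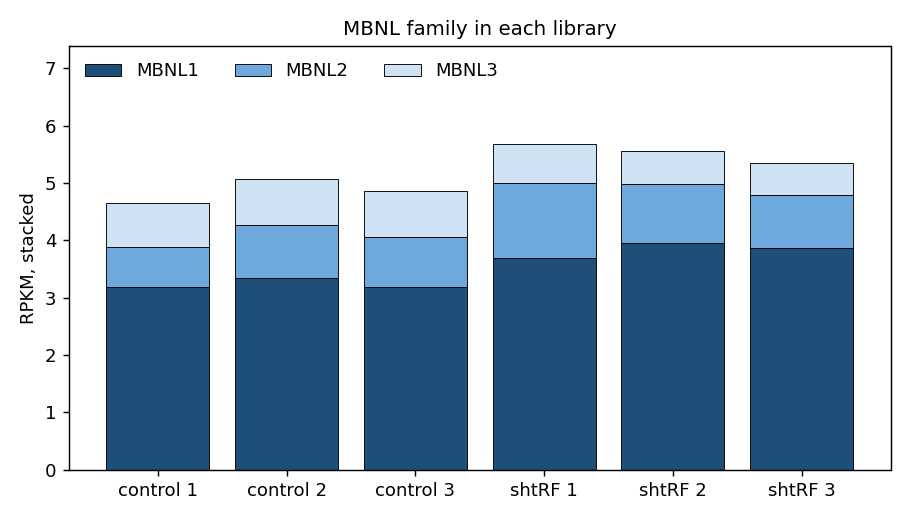
Stacked RPKM of MBNL1, MBNL2 and MBNL3 in each of the 6 libraries, each bar a library. The bars reach 4.66 to 5.07 RPKM in control and 5.34 to 5.68 RPKM in shtRF, and the MBNL3 segment is smaller in all 3 shtRF libraries.

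CELF1, the widely expressed CELF protein that acts against MBNL on shared exons (chr11:47465944-47565569, minus strand), was 68.4, 68.2 and 68.5 CPM in control and 65.1, 60.6 and 59.4 CPM in shtRF. All 3 shtRF libraries lay below the very tight control group, and the gene fell by 9.76% (log2 fold change -0.15 ± 0.05, adjusted p = 0.0352, edgeR). The call depended on nearly every library. It was lost on leaving out any library other than shtRF replicate 1, with adjusted p from 0.0543 to 0.176, and with no filter on low counts (0.0587). The ratio of summed MBNL to CELF1, both per length, was 0.742 ± 0.032 in control and 0.936 ± 0.023 in shtRF, with no overlap. This separation is no further result, as the MBNL sums lay above and the CELF1 levels below those of every control library.

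CELF2, a paralogue abundant in brain, muscle and T cells, was at the edge of detection. In control, 2, 4 and 2 counts were recorded, and each shtRF library had 0. The 0 of 204708455 shtRF counts allow up to 0.0149 CPM at 3 counts, which is below the 0.0307, 0.053 and 0.0251 CPM of the control libraries. This limit covers counting error only and takes counts as independent, whereas both mates of a pair appear to be counted at genes with few reads, so it is too low. With no filter on low counts the adjusted p of CELF2 was 0.236 (edgeR). Of the other CELF genes, CELF5 had at most 2 counts in any library, and CELF3, CELF4 and CELF6 were tested and not called (log2 fold changes 0.15 ± 0.77, -0.72 ± 0.28 and 0.20 ± 0.17; adjusted p = 0.907, 0.0505 and 0.394, edgeR). CELF1 was thus the CELF gene that carried nearly all counts of its pair, at 99.9% of the summed CELF1 and CELF2 level in control.

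RBFOX2, the RBFOX protein of epithelial and many other cells (chr22:35738736-36028425, minus strand), rose with a small spread. Its levels were 95.5, 92.1 and 96.7 CPM in control and 115, 119 and 116 CPM in shtRF, and the groups lay far apart compared with their SDs of 2.37 and 1.93 CPM. The log2 fold change was 0.30 ± 0.05 (adjusted p = 7.7e-05, edgeR), and the direction and the call held under all 17 alternatives. Its paralogues RBFOX1 and RBFOX3, which are mainly neuronal, had at most 10 and 7 counts in any library and were not tested.

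ESRP1 and ESRP2, which promote epithelial exons in transcripts such as FGFR2, CD44, CTNND1 and ENAH, showed little difference. ESRP1 was 140, 136 and 132 CPM in control and 141, 137 and 144 CPM in shtRF, and ESRP2 was 92.6, 91.7 and 94.9 CPM in control and 91.7, 98.5 and 97.9 CPM in shtRF. Both genes overlapped between the groups. The log2 fold changes were 0.05 ± 0.05 for each (adjusted p = 0.495 and 0.54, edgeR). Their sign turned under limma on the log2 RPKM scales, which used raw library totals without TMM. The ratio of ESRP1 to ESRP2 per length was 1.67 ± 0.07 in control and 1.68 ± 0.08 in shtRF. A p above the threshold does not show that the levels were equal.

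QKI, the STAR-family protein linked to mesenchymal splicing forms (chr6:163414000-163578596, plus strand), had the largest change of the 9 tested members. Its levels were 32.3, 30.3 and 32.8 CPM in control and 18.4, 19.8 and 18.2 CPM in shtRF. The lowest control library lay over 10 CPM above the highest shtRF library. The mean went from 31.8 ± 1.36 CPM to 18.8 ± 0.85 CPM, a log2 fold change of -0.76 ± 0.07 (adjusted p = 6.9e-09, edgeR), and 87.3% of tested genes moved less. The call held under all 17 alternatives, those that left out 1 library included, with log2 fold changes from -0.80 to -0.47. QKI shared no exonic base with another gene. The ratio of summed ESRP to QKI per length went from 24.4 ± 1.09 to 42.7 ± 2.36. The lower summed mesenchymal level given above was mostly that of the collagen gene COL1A1, which went from 32.2 ± 2.87 CPM to 20.9 ± 0.33 CPM (log2 fold change -0.62, adjusted p = 2.9e-07, edgeR). Of the other 3 tested mesenchymal markers, FN1 and COL1A2 were not called (adjusted p = 0.131 and 0.706, edgeR), and ZEB1, a repressor of epithelial genes, was higher (log2 fold change 0.57, adjusted p = 0.0292, edgeR). The remaining 6 markers, VIM among them, had too few counts to be tested.

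RBM47 lay at chr4:40423267-40630875 on the minus strand. Its levels were 70.5, 74.9 and 71.6 CPM in control and 64.2, 63.5 and 65.9 CPM in shtRF. The groups did not overlap, and RBM47 fell by 10.8% (log2 fold change -0.16 ± 0.05, adjusted p = 0.0168, edgeR). The adjusted p was 0.0599 without control replicate 2 and 0.0749 without shtRF replicate 2. Its relatives A1CF, which is also an APOBEC1 partner, and RBM46 had at most 10 and 1 counts and were not tested.

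**Figure D4:**
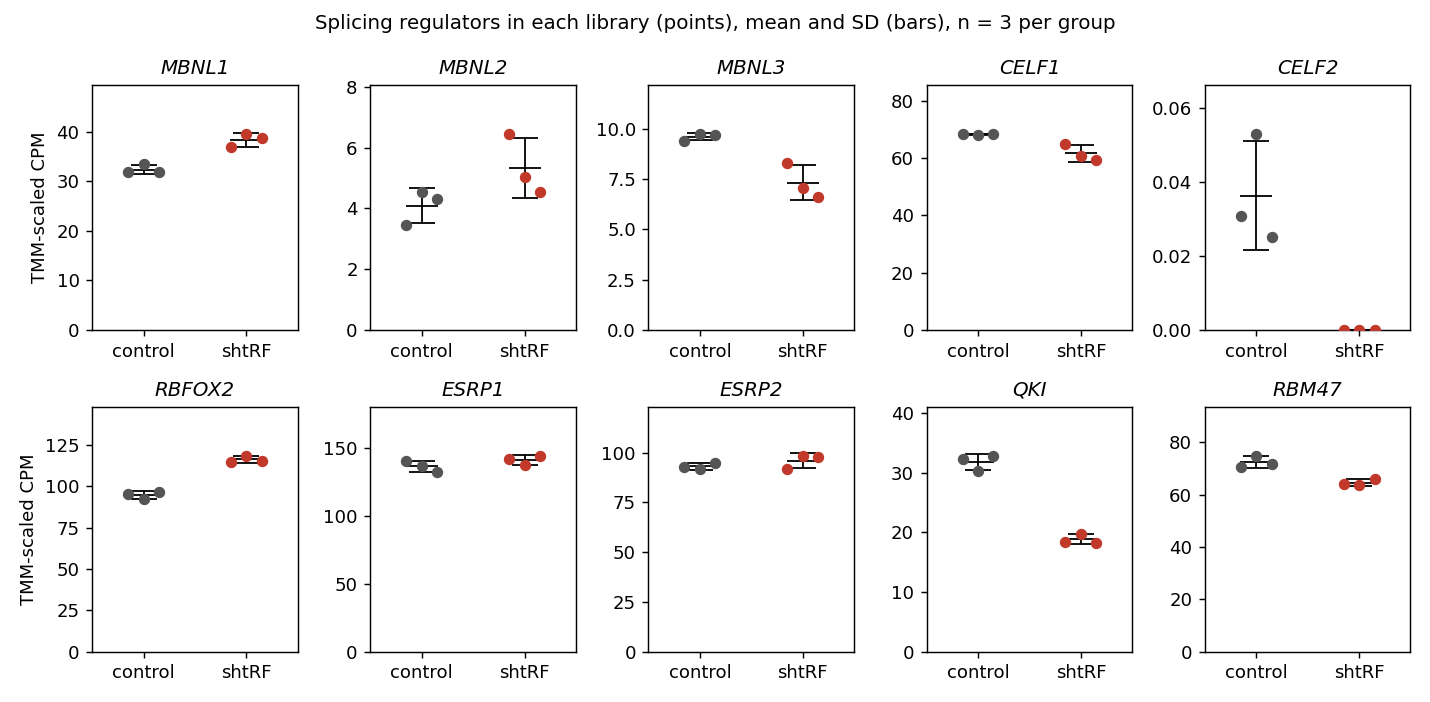
TMM-scaled CPM of the 10 regulators in each library (points; grey control, red shtRF), with the mean and SD of 3 libraries as bars and each y axis starting at 0. QKI shows the widest gap between groups, MBNL2 has 1 high shtRF library, and ESRP1 and ESRP2 overlap.

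A list of 42 other splicing regulators sets these values in context. Of them 41 were in the table and 28 were tested, with 2 higher (background 20.6%) and 9 lower (background 18.9%), a median log2 fold change of -0.01 against 0.00 over all tested genes, and 9 of 28 with groups that did not overlap (background 48.7%). PTBP proteins repress many neuronal exons. PTBP1 went from 51.0 ± 1.42 CPM to 40.2 ± 2.21 CPM (log2 fold change -0.34 ± 0.06) and PTBP2 from 4.68 ± 0.11 CPM to 2.72 ± 0.20 CPM (-0.78 ± 0.13), and PTBP3 was not called (-0.17 ± 0.09, adjusted p = 0.116, edgeR). RBM38, a p53 target that regulates mRNA stability and splicing, fell from 4.23 ± 0.81 CPM to 1.99 ± 0.34 CPM (-1.08 ± 0.17). MSI2, a Musashi protein mainly known in translation, fell from 43.1 ± 0.85 CPM to 29.1 ± 0.83 CPM (-0.57 ± 0.06).

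RBMS2 fell by 0.59 on the log2 scale and TIA1, which promotes the use of weak 5′ splice sites, by 0.39. TIAL1, KHDRBS1 and ELAVL1 each fell by 0.21. Each of these 9 genes had an adjusted p of at most 0.0117 (edgeR) and groups that did not overlap. The rises were RBMS1 (0.25 ± 0.09, adjusted p = 0.0363) and RBM5 (0.15 ± 0.06, adjusted p = 0.046, edgeR), and both overlapped between the groups. Neither rise was called without control replicate 2, without shtRF replicate 2 or under upper quartile scaling. Of the 9 falls, RBM38, PTBP2 and RBMS2 passed 1.5-fold, the last of these by a narrow margin, and 0 of the rises did.

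The last list holds 22 genes with exons that are known to be regulated by MBNL, CELF, RBFOX, ESRP or QKI proteins, or that the study examined. Only their total level is measured here. CD44, CLCN1 and LDB3 had too few counts to be tested. Of 19 tested, 6 were higher (background 20.6%) and 5 lower (background 18.9%), each with an adjusted p of at most 0.0449 (edgeR), and the median log2 fold change was 0.04. FGFR2, the receptor whose exon IIIb is an ESRP target, rose from 3.73 ± 0.05 CPM to 6.88 ± 0.19 CPM (0.88 ± 0.11). ITGA6, an integrin with an alternative tail, fell from 56.2 ± 1.97 CPM to 35.7 ± 2.29 CPM (-0.65 ± 0.06). TNNT2 and MAPT, which hold well-known MBNL and CELF exons, fell from 2.97 ± 0.51 CPM to 1.38 ± 0.05 CPM (-1.10 ± 0.18) and from 2.84 ± 0.60 CPM to 1.03 ± 0.22 CPM (-1.46 ± 0.21).

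The study picked KIF13A and PPFIBP1 partly from these same libraries, by their splicing and not their total level, and took MAP2K7 from an earlier dataset on MBNL1. It also reported exon changes in each of these genes by semi-quantitative PCR. The total levels of KIF13A and PPFIBP1 come from libraries used in that choice and are no independent evidence. KIF13A, a kinesin, was 81.9, 82.0 and 79.8 CPM in control and 42.9, 45.5 and 43.0 CPM in shtRF (-0.89 ± 0.05). PPFIBP1, a liprin, went from 60.5, 55.2 and 59.1 CPM to 115, 119 and 122 CPM (1.02 ± 0.05). MAP2K7, a kinase upstream of JNK, changed little (0.15 ± 0.06, adjusted p = 0.0449, edgeR). CTNND1 and CTTN rose by 0.22 and 0.41 on the log2 scale and INSR fell by 0.37. A change in the total level of a gene with a regulated exon alters the reads behind each of its forms, and no exon inclusion was measured.

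**Figure D5:**
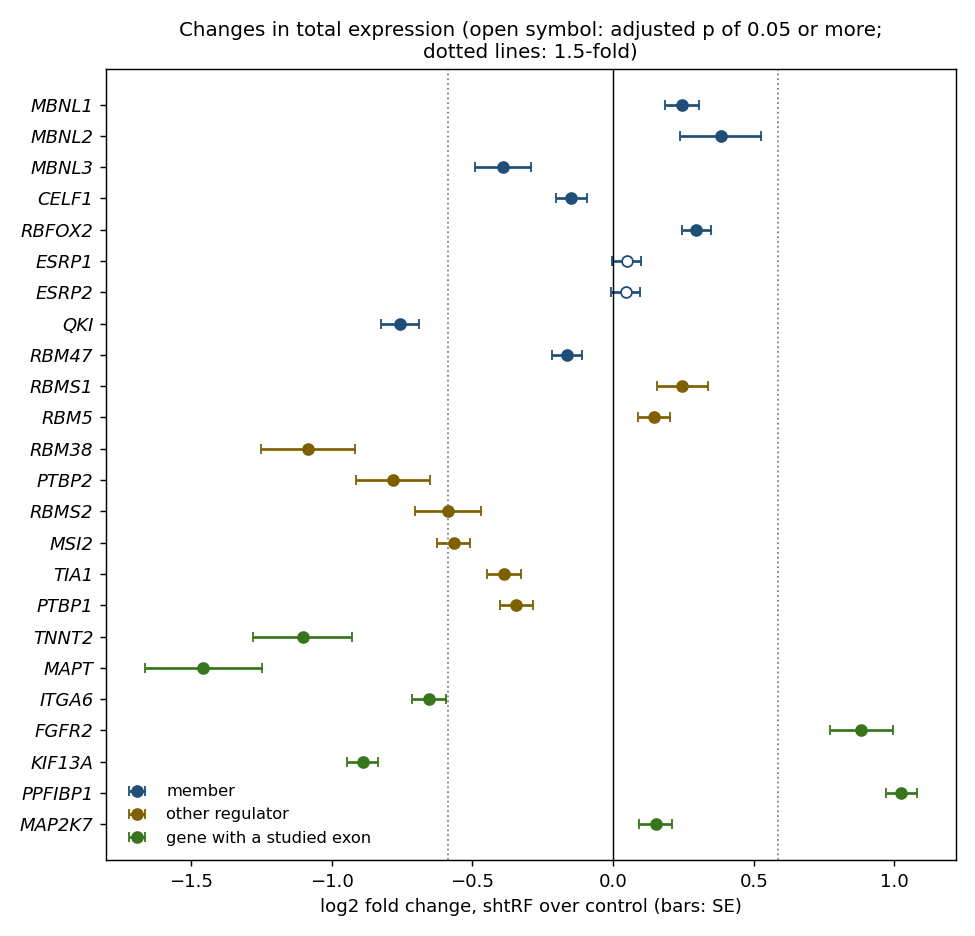
Log2 fold change of shtRF over control with its SE for the tested members (blue), the named other regulators (ochre) and the named genes with a studied exon (green). QKI is the 1 member beyond the dotted 1.5-fold line, and several non-members lie farther out. All tested members are drawn, whereas the non-members were picked partly by the size of their change in these data. Their reach therefore cannot be compared with that of the members.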

How the data were processed

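Strand-specific mRNA libraries of 6 samples, sequenced as read pairs, were grouped by sample title. Per the labels, processing used Trimmomatic 0.36, featureCounts, Subread 1.5.1, edgeR 3.12.1 and GRCh38; the aligner is not given in the sources used here. The authors deposited raw read counts per gene with exon coordinates, and RPKM values, of which 4997 complete rows were used. Over 4991 of these matched by symbol, 100% equalled count over length and total (relative tolerance 0.0001). Only 2 of the 10 members were among the complete rows, so the check does not cover the other members. Among counts of 1 to 4, 74.2% to 77.1% were even, as when both mates are counted, and overlapping genes may share reads.

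Counts were tested with edgeR 4.0.16 (R 4.3.3): filterByExpr (minimum count 10), TMM (factors 0.961 to 1.03), quasi-likelihood F-test with group as the only term, and Benjamini-Hochberg adjustment over 19628 genes, calling an adjusted p under 0.05. The coefficient of variation between replicates was 7.56%. SEs were derived from each F statistic. The CPM and RPKM levels given here were recomputed from the counts with TMM-scaled totals, and p-values of the main test rest on counts only. Both limma alternatives instead used RPKM scaled by raw library totals, without TMM. Shares and ratios of a family are descriptions. Percentiles of levels and of changes are over the tested genes.

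On simulated counts over 19286 genes, the test recovered 18 of 50 genes changed by 1.25-fold and 27 of 50 by 1.5-fold. It recovered 36 of 50 changed by 2-fold and 47 of 50 by 4-fold, with 8 false calls among 136. Only these genes were changed in the simulation, a far smaller share than the 39.5% of tested genes called in the data. The adjustment is stricter when fewer genes change, so these recoveries do not give the power of the real test. Alternatives were 16 planned settings and 1 added after seeing the data (counts of overlapping genes subtracted from MBNL1), with DESeq2 1.42.0 and limma 3.58.1 among the tools. The members and lists were chosen with earlier results of these data known. Named were all members and their paralogues, genes sharing at least 10% of a member's exons, up to 6 rises and 6 falls of other regulators past the threshold with at least 1 CPM, and listed targets; ELAVL1, KHDRBS1, TIAL1, PTBP3, CTNND1, CTTN, INSR, CD44, CLCN1, LDB3, VIM, COL1A1, COL1A2, FN1 and ZEB1 were added after their values were seen. NOVA2 was not analysed here, and 1 gene counted in the list of targets is not reported here by name. No sequence of proteins or promoters was used.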

Additional observations from a re-analysis of the deposited data

How the results depend on the processing

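Over 153 values of single members under alternatives, 133 kept their direction and their side of the threshold, 16 kept their direction but lost the call, and 4 changed sign; the last were ESRP1 (-0.0039 and -0.0040) and ESRP2 (-0.0079 and -0.0083) under limma-trend on log2(RPKM + 1) and log2(RPKM + 0.1). On these scales 1 member was higher, and on log2(RPKM + 1) 0 members were lower by over 1.5-fold, with 418 genes higher and 543 lower by over 1.5-fold in all, since an added 1 shrinks differences between low values. Leaving out 1 library gave 2 to 4 members lower (2 without control replicate 2 and without shtRF replicate 2) and 0 to 2 other regulators higher. Other regulators higher numbered 1 under RLE scaling, at least 10 counts in every library, at least 1 CPM in 3 libraries and halved counts, and 0 under upper quartile scaling and both limma scales. Replicates 1 to 3 share only a number (correlations of same-numbered deviations 0.059, 0.018 and 0.017); with a replicate block, 1 other regulator was higher and no member's call changed. Shares of a family taken on counts rather than per length moved in 8 of 40 values, and MBNL1 then made up 70.2% in control and 75.2% in shtRF, without overlap. Median log2 changes over all genes stayed within 0.05 of 0 under every setting. They were -0.025 on log2(RPKM + 1) and -0.050 on log2(RPKM + 0.1), where limma used raw library totals without TMM. For these settings, effects of scaling, tool and scale were not separated. Depth limits CELF2 and the paralogues with few counts.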
